A study of Sus scrofa with 3 samples.

Results

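The intercellular bridge and cytokinesis genes examined here are TEX14, CEP55, KIF23, RACGAP1, ECT2, ANLN, PRC1, CIT and KIF20A. They were chosen by symbol and not by a cut on their level, though with earlier results of these data known. All 9 were found among the 18730 genes of the expression table. The table holds 3 libraries, named S1, S2 and S3, of germ cells from pigs aged 90 days, sorted as spermatogonia positive for SSEA4, a glycolipid of the cell surface. No strain, treatment or allele is given in the labels, and other cell populations were not analysed here, so no contrast between populations was made. Values are FPKM, fragments counted per kilobase and scaled to the reads mapped in each library, so that levels of genes of different length can be set side by side.

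Cytokinesis is the last step of cell division, in which a contractile ring pinches the cell and a midbody forms between the daughters before they are cut apart. Germ cells of many animals stop short of that cut and stay joined by stable intercellular bridges, so that spermatogonia descended from a single stem cell form chains with a shared cytoplasm. In mice TEX14 is the germ cell protein needed for these bridges: it binds CEP55 at the midbody and keeps away the partners, ALIX and TSG101, that lead to the cut. The other 8 genes serve cytokinesis in dividing cells generally.

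All 9 genes were expressed above the level of 1 FPKM in each library. Their means ran from 4.797 ± 0.334 FPKM for CIT to 40.3 ± 2.28 FPKM for PRC1 (SD, n = 3), an 8.40-fold range. TEX14 stood next to the top at 38.2 ± 10.3 FPKM. In a limma fit over 17949 genes of the mean of log2(FPKM + 1) against 1 FPKM, 9 of 9 genes lay above the level, with Benjamini-Hochberg adjusted p between 5.45e-08 and 1.71e-05, while 65.6% of all genes tested were called above it. The median of log2(FPKM + 1) was 3.72 over the 9 genes and 2.30 over all genes tested. PRC1 and TEX14 were at percentiles 89.0 and 88.5 of all genes tested by mean FPKM, and CIT was the lowest of the 9, at percentile 53.5. Against a level of 5 FPKM, above which 42.5% of all genes tested were called, 8 of the 9 genes lay above and CIT was not told apart from it (limma, adjusted p = 0.516). The labels do not say that the libraries came from separate animals, so these p-values measure only the spread between libraries, which may be technical.

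Markers of germ cells and of other testis cells were read against 1 FPKM in the same fit. All 9 measured markers of undifferentiated spermatogonia and all 4 measured germ cell markers lay above it, from GFRA1, the GDNF receptor, at 2.96 ± 0.742 FPKM to SYCP3, a protein of meiotic chromosomes, whose level was 403 ± 32.6 FPKM (SD, n = 3). Of 8 Sertoli cell markers 4 lay above, with CLU at 228 ± 100.1 FPKM, and 4 below, with DHH at 0.0203 ± 0.0205 FPKM, where 65.6% of all genes tested were called above and 28.5% below. All 6 peritubular markers lay above. Of 5 measured Leydig markers 2 lay above and 2 below, of 4 measured endothelial markers 2 lay above and 1 below, and of 6 leukocyte markers 1 lay above and 3 below. RNA of other cells may be included in the levels of the 9 bridge and cytokinesis genes, and its part was not tested. These markers do not show which cells were dividing. In bulk RNA, fewer cells of a type and less RNA per cell cannot be told apart. The summed FPKM of the 3 libraries was between 781871 and 859642, and read depth is unknown, since the table holds no counts. The study's protocols call the values FPKM whereas the table's name says TPM. Levels set against 1 FPKM and values compared between libraries are touched by that doubt, while ratios of genes within a library are not.

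**Figure D1:**
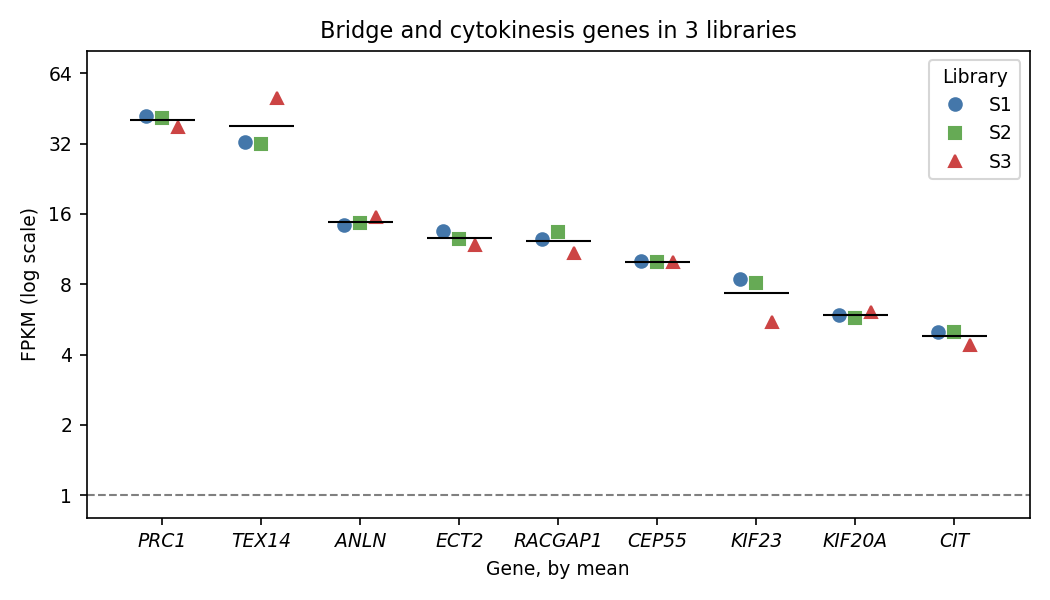
Expression of the 9 bridge and cytokinesis genes, in FPKM on a log axis, with 1 point per library, a bar at the mean of the 3 libraries and a dashed line at 1 FPKM. PRC1 and TEX14 stand above the other 7 genes in every library, and the S3 point of TEX14 is the highest on the plot, at 49.99 FPKM.

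TEX14 (ENSSSCG00000017645), the bridge protein, was read at 49.99 FPKM in S3, against 32.5 FPKM in S1 and 31.9 FPKM in S2. The values of S1 and S2 lay close together and that of S3 stood apart from them, 1.55-fold over their mean. CEP55 (ENSSSCG00000010477), the midbody scaffold that TEX14 binds, was read at 10.08 FPKM in S1, 10.002 FPKM in S2 and 9.94 FPKM in S3. As deposited these were nearly the same, with a coefficient of variation of 0.703%, and 0.567% of the 12340 genes that averaged 1 FPKM or more varied as little or less. That closeness depends on the scaling: with each library rescaled to sum to 1000000, CEP55 in S3 lay 0.12 over the mean of S1 and S2 on the log2 scale. TEX14 exceeded CEP55 in 3 of 3 libraries, 5.03-fold in S3, 3.23-fold in S1 and 3.19-fold in S2. The mean log2 ratio was 1.898 ± 0.374 (SD, n = 3), a ratio within each library that no rescaling touches, and it was highest in S3. The genes for ALIX and TSG101 were not analysed here, so their levels could not be set beside that of TEX14.

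Among the 2 other listed genes of the germ cell bridge, RBM44, whose product binds TEX14 in mice, had 29.7 FPKM in S1, 29.0 FPKM in S2 and 30.5 FPKM in S3. STX2, a membrane fusion protein without which mouse spermatocytes fuse into multinucleated cells, had 25.3 FPKM in S1, 25.7 FPKM in S2 and 24.3 FPKM in S3. Both were close across the libraries as deposited, without the high S3 value of TEX14, and both lay above 1 FPKM (limma, adjusted p = 5.51e-08 for RBM44 and 6.57e-08 for STX2). The log2 ratio of TEX14 over RBM44, a pair chosen after the values were seen, was 0.71 in S3, against 0.13 in S1 and 0.14 in S2. Its mean was 0.33 ± 0.331 (SD, n = 3), no larger than the spread, and without S3 it was 0.14.

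Centralspindlin is the complex of the kinesin KIF23 and the GTPase-activating protein RACGAP1 that gathers at the spindle midzone and stays in the bridge. KIF23 (ENSSSCG00000004969) was read at 5.52 FPKM in S3, against 8.43 FPKM in S1 and 8.09 FPKM in S2. RACGAP1 (ENSSSCG00000000217) was read at 10.9 FPKM in S3, against 12.5 FPKM in S1 and 13.3 FPKM in S2. Both were lowest in S3. KIF23 stood below RACGAP1 in 3 of 3 libraries, at 0.507 of it in S3, 0.674 in S1 and 0.606 in S2, so these partners were not equal in FPKM. RefSeq places KIF23 across 1 long noncoding RNA, and the part of that overlap in the ratio was not tested. The mean log2 ratio of KIF23 over RACGAP1 was -0.76 ± 0.208 (SD, n = 3).

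ECT2 (ENSSSCG00000035746), the exchange factor that RACGAP1 recruits to switch on RHOA at the cleavage site, had 13.6 FPKM in S1, 12.5 FPKM in S2 and 11.8 FPKM in S3. It did not differ from RACGAP1 beyond the spread between libraries, with a mean log2 ratio of 0.05 ± 0.126 (SD, n = 3) that was above 0 in 2 of 3 libraries. ANLN (ENSSSCG00000016658), the scaffold anillin that ties RHOA to actin, myosin and septins, had 14.3 FPKM in S1, 14.7 FPKM in S2 and 15.5 FPKM in S3. CIT (ENSSSCG00000009839), citron kinase, which organises the midbody, had 4.98 FPKM in S1, 5.003 FPKM in S2 and 4.41 FPKM in S3. ANLN stood above ECT2 and CIT in every library.

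PRC1 (ENSSSCG00000037307) bundles the antiparallel microtubules of the midzone and had 42.1 FPKM in S1, 41.1 FPKM in S2 and 37.7 FPKM in S3. It exceeded KIF23, another midzone protein, in 3 of 3 libraries, 6.84-fold in S3, 4.99-fold in S1 and 5.08-fold in S2, with a mean log2 ratio of 2.48 ± 0.255 (SD, n = 3). KIF20A (ENSSSCG00000014326), the kinesin that carries the chromosomal passenger complex to the midzone, had 5.93 FPKM in S1, 5.74 FPKM in S2 and 6.11 FPKM in S3. KIF20A stood above KIF23 in S3, at 1.11-fold, and below it in S1 and S2, at 0.703 and 0.709. The mean log2 ratio of KIF20A over KIF23, -0.29 ± 0.374 (SD, n = 3), was smaller than its spread. Without S3 it was -0.50. On Sscrofa11.1, RefSeq places KIF20A across part of CDC23, a subunit of the anaphase-promoting complex read at 9.72 ± 0.740 FPKM. It places PRC1 and KIF23 each across 1 long noncoding RNA, and CIT across 1 long noncoding RNA and 1 pseudogene. The use of strand in counting is not given in the sources used here, so reads from those overlaps cannot be told apart.

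**Figure D2:**
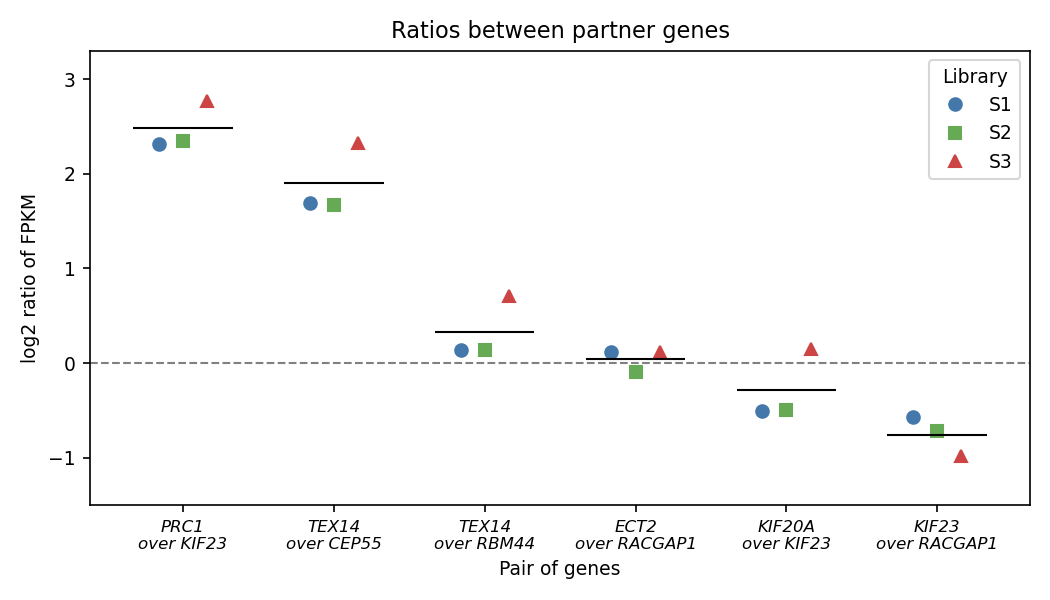
The log2 ratio of FPKM between 6 pairs of partner genes, with 1 point per library, a bar at the mean and a dashed line at equal levels. PRC1 over KIF23 and TEX14 over CEP55 lie above 0 in all 3 libraries and KIF23 over RACGAP1 lies below 0, while KIF20A over KIF23 changes side in S3.

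By mean FPKM the order was PRC1, TEX14, ANLN, ECT2, RACGAP1, CEP55, KIF23, KIF20A and CIT. Neighbours were taken to differ beyond their spread where the mean log2 ratio exceeded 2 SD with the same sign in 3 of 3 libraries. Of 8 neighbouring pairs, 2 did so. TEX14 stood over ANLN by 1.33 ± 0.315 on the log2 scale and KIF20A over CIT by 0.31 ± 0.143 (SD, n = 3). PRC1 and TEX14 changed places: their log2 ratio was -0.41 in S3, against 0.37 in S1 and 0.36 in S2. ANLN, ECT2, RACGAP1, CEP55, KIF23 and KIF20A formed a run in which no neighbour was told apart from the next by this rule. RACGAP1 over CEP55 just missed it, at 0.286 ± 0.1442 with the same sign in 3 of 3 libraries. The run is not a single level, since ANLN averaged 14.8 FPKM and KIF20A 5.93 FPKM. Without S3, 6 of 8 neighbouring pairs met a looser form of the rule, with the same sign needed in 2 of 2 libraries. An exact sign-flip permutation test of 3 libraries cannot give a two-sided p under 0.25, so no such test is given.

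The 9 genes varied little between S1 and S2. Their median coefficient of variation was 6.97% over the 3 libraries, against 9.34% for the 12340 genes that averaged 1 FPKM or more, and 6 of the 9 varied less than that median gene. Without S3 the medians were 1.9003% for the 9 genes and 5.05% for the 12340. TEX14, at 26.9%, and KIF23, at 21.7%, varied most, and 6.18% of genes with such a mean varied as much as TEX14 or more.

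S3 was set against the mean of S1 and S2 as a description chosen after the values were seen, since 1 library has no replicate. Of the 9 genes, 3 were highest in S3 and 6 lowest, while 50.0% of the 12340 genes were highest there and 33.1% lowest. TEX14 stood at a log2 ratio of 0.63, which 1.88% of those genes reached or passed (1.89% without mitochondrially encoded and ribosomal protein genes). KIF23 stood at -0.58, and 5.06% of the genes were as low or lower (5.02% without those abundant genes). The median of all 12340 genes was 0.06. It was 0.19 after rescaling to 1000000 and -0.02 without the abundant genes. Relative to that median TEX14 was at 0.57 in each of the 3 scalings, and KIF23 at -0.64 in each. Scaling multiplies all genes of a library by the same factor, so these values and the percentages for TEX14 and KIF23 had to stay nearly the same. The counts and shares of genes highest or lowest in S3 are of values as deposited, and scaling can change them. RACGAP1, at -0.31, CIT, at -0.24, ECT2, at -0.20, and PRC1, at -0.20, were also under the median of all genes, as was CEP55, at -0.07. ANLN and KIF20A lay within 0.05 of that median, at 0.03 and 0.01. Before that median is taken off, CEP55 turned from -0.01 to 0.12 after rescaling, and KIF20A from 0.07 to -0.01 with the abundant genes removed.

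**Figure D3:**
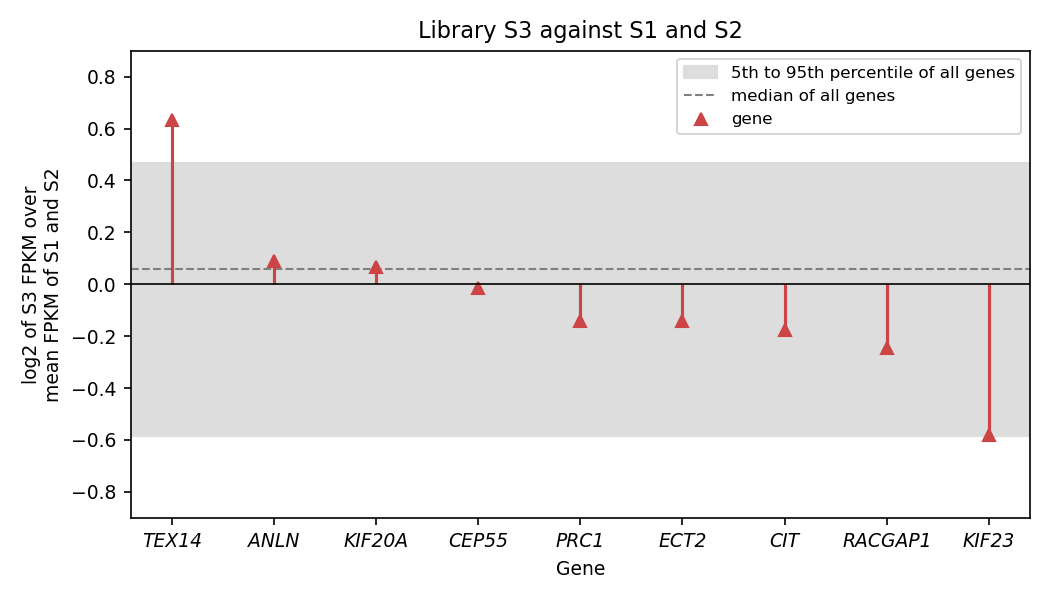
The log2 ratio of FPKM in S3 over the mean of S1 and S2 for each of the 9 genes, with the median (dashed) and the 5th to 95th percentile (grey) of the 12340 genes that averaged 1 FPKM or more. TEX14 lies above the grey range, which ends at 0.47, and KIF23 lies at its lower end, -0.58.

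The make-up of S3 differed in other ways, in values that have no replicate. The 13 mitochondrially encoded genes took 52.7% of the summed FPKM in S3, against 57.7% in S1 and 59.3% in S2. The 9 markers of undifferentiated spermatogonia summed to 296 FPKM in S3, against 223 in S1 and 206 in S2. Of the 9, 7 were highest in S3, beside 50.0% of the 12340 genes that averaged 1 FPKM or more. The highest of the 9 markers was NANOS3, a germ cell RNA-binding protein, read at 98.1 FPKM in S3, against 50.04 FPKM in S1 and 43.7 FPKM in S2. The 4 measured germ cell markers summed to 734 FPKM in S3, against 641 in S1 and 701 in S2. Of the 4, 3 were highest in S3, beside 50.0% of the 12340 genes. Most of each sum was SYCP3, at 423 FPKM in S3, against 366 in S1 and 421 in S2. DDX4, another of them, was at 81.1 FPKM in S3, between 78.5 in S1 and 84.8 in S2. Sertoli cell markers summed to 180.2 FPKM in S3, against 400.5 in S1 and 297 in S2, although none of the 8 was at 0. Most of each sum was CLU, at 125 FPKM in S3, against 325 in S1 and 234 in S2. WT1, another of them, was at 41.9 FPKM in S3, 45.6 in S1 and 40.9 in S2. Peritubular markers summed to 64.8 FPKM in S3, against 106 in S1 and 81.6 in S2. Among them TAGLN was at 8.87 FPKM in S3, against 37.2 in S1 and 24.4 in S2. DCN was at 31.0 FPKM in S3, between 34.8 in S1 and 28.5 in S2. Leydig markers summed to 4.66 FPKM in S3, against 15.5 in S1 and 12.4 in S2, and LHCGR, the luteinizing hormone receptor, was listed at 0 in S1 and S3. Of the somatic markers that averaged 1 FPKM or more, S3 was lowest for 3 of 4 Sertoli, 4 of 6 peritubular and 3 of 3 Leydig genes. It was lowest for 1 of 2 endothelial genes, and of 2 leukocyte genes 1 was lowest and 1 highest there. Among the 12340 genes, 33.1% were lowest in S3. Endothelial markers summed to 8.54 FPKM in S3, against 10.9 in S1 and 11.0 in S2, and leukocyte markers to 19.0 FPKM in S3, against 23.2 in S1 and 19.7 in S2. The part of these mitochondrial and marker differences in the TEX14 and KIF23 values was not tested.

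**Figure D4:**
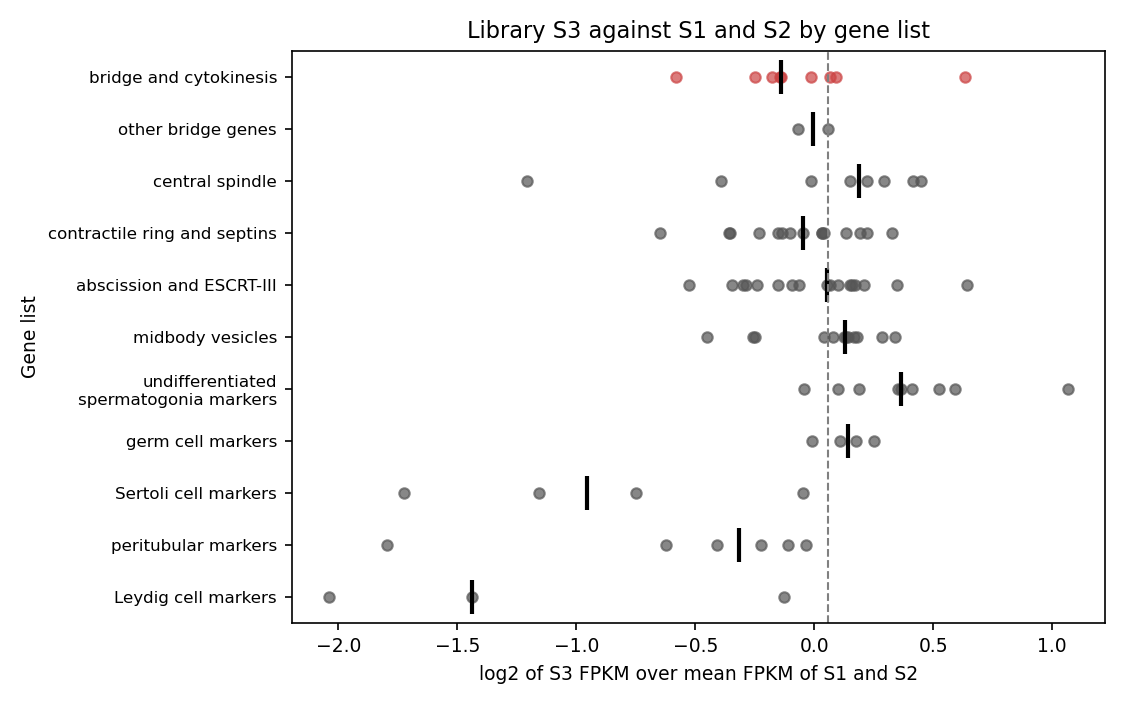
The log2 ratio of FPKM in S3 over the mean of S1 and S2 for genes that averaged 1 FPKM or more, with 1 point per gene, a tick at the median of each list and a dashed line at the median of all such genes. Endothelial and leukocyte markers are not drawn. The 9 bridge and cytokinesis genes have a median of -0.14 (-0.0072 after rescaling to 1000000 and -0.22 without the abundant genes) and TEX14 as their highest point, at 0.63, while Sertoli markers have a median of -0.95 and markers of undifferentiated spermatogonia one of 0.36.

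Other genes of cell division were counted from lists in the same fit, in which 65.6% of all genes tested lay above 1 FPKM. Those lists were also chosen with earlier results of these data known. Of 8 regulators of the central spindle, 8 lay above 1 FPKM (limma, Benjamini-Hochberg adjusted p under the threshold of 0.05), and their median log2(FPKM + 1) was 3.63, close to the 3.72 of the bridge and cytokinesis genes. KIF20B, a kinesin of late cytokinesis, averaged 78.2 ± 14.6 FPKM. INCENP, the scaffold of the chromosomal passenger complex, averaged 36.2 ± 4.41 FPKM and PLK1, the kinase that licenses ECT2 binding, 28.8 ± 2.27 FPKM (SD, n = 3). The lowest were AURKB, the kinase of the passenger complex, and KIF14, the kinesin that binds CIT and PRC1, at 1.28 ± 0.196 FPKM. AURKB was read at 1.30 FPKM in S3, against 3.34 FPKM in S1 and 2.66 FPKM in S2, so that S3 stood apart. Neither was told apart from 1 FPKM without S1 (adjusted p = 0.0621 for AURKB and 0.183 for KIF14) or without S2 (0.0849 and 0.22). At a level of 5 FPKM, 5 of the 8 lay above, where 42.5% of all genes tested did.

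The contractile ring was the list with the highest single levels. All 15 measured of 17 listed genes lay above 1 FPKM, beside 65.6% of all genes tested, with a median log2(FPKM + 1) of 5.03. MYH10 and MYL12B were not analysed here. MYL12A, a myosin regulatory light chain, averaged 578 ± 47.4 FPKM, SEPTIN7, the core septin subunit, 391 ± 24.5 FPKM and ROCK1, the kinase downstream of RHOA, 165 ± 5.22 FPKM (SD, n = 3). SEPTIN6 averaged 3.74 ± 0.513 FPKM and MYL9, the smooth muscle light chain, 3.29 ± 0.963 FPKM, the lowest of the list. MYL12A and MYL12B are near-identical copies, so the value of MYL12A is uncertain.

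Abscission, the final cut, is carried out by ESCRT-III filaments. Of 17 measured genes among 20 listed, 16 lay above 1 FPKM and none below, beside 65.6% above and 28.5% below among all genes tested, with a median log2(FPKM + 1) of 4.68. CHMP2A and CHMP3, subunits of the filament, averaged 124 ± 10.5 and 72.5 ± 7.76 FPKM, and SPAST, which severs the microtubules of the bridge, 84.2 ± 12.3 FPKM (SD, n = 3). ZFYVE19, which delays abscission, averaged 3.25 ± 0.131 FPKM. CHMP4C, the subunit of the abscission checkpoint, was read at 0.776 FPKM in S3, against 1.06 FPKM in S1 and 1.17 FPKM in S2. Its level could not be told from 1 FPKM (limma, adjusted p = 0.981). Without the mitochondrially encoded and ribosomal protein genes it lay above (limma, adjusted p = 0.000544). That scaling raised the values of all genes kept, while the level stayed at 1.

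Vesicles that deliver membrane to the midbody are guided by RAB GTPases and tethered by the exocyst. All 12 measured of 14 listed genes lay above 1 FPKM, beside 65.6% of all genes tested, with a median log2(FPKM + 1) of 4.96. OCRL, a lipid phosphatase recruited by RAB35, averaged 68.9 ± 3.76 FPKM, and the exocyst subunits EXOC3 and EXOC7 39.6 ± 3.0 and 39.4 ± 7.23 FPKM (SD, n = 3). RAB11FIP3, which brings RAB11 vesicles to the midbody, averaged 4.24 ± 0.406 FPKM and EXOC4 4.06 ± 0.573 FPKM.

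**Figure D5:**
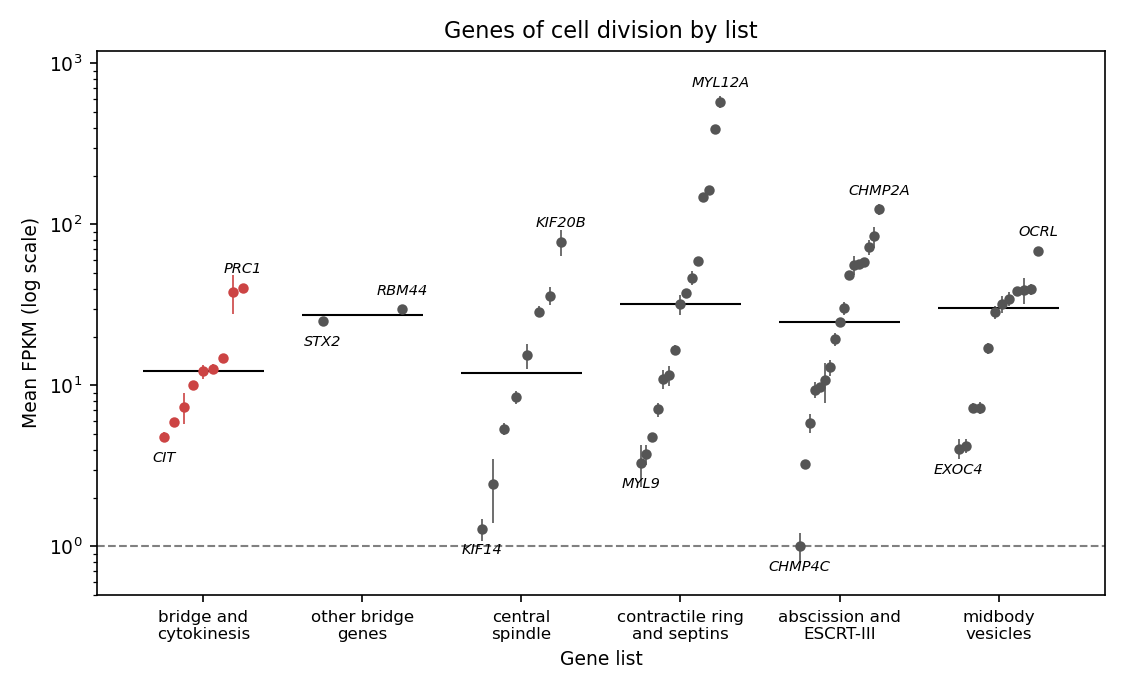
Mean FPKM on a log axis of the bridge and cytokinesis genes (left, red) and of the 5 other lists of division genes, with 1 point per gene, error bars of 1 SD over 3 libraries, a bar at each list's median and a dashed line at 1 FPKM. The 9 genes span 4.797 to 40.3 FPKM, within the range of the contractile ring list, which runs from 3.29 to 578 FPKM, and CHMP4C lies on the line.

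The genes most like TEX14 were found by the root mean square difference of log2(FPKM + 1) over the 3 libraries, which takes level and pattern together. They were EFHC2 at 0.08, FOXO1 at 0.10, SERPING1 at 0.11, TDRD3 at 0.11 and ATF7IP at 0.12. EFHC2 was read at 47.7 FPKM in S3, against 30.1 FPKM in S1 and 30.3 FPKM in S2. FOXO1, a transcription factor used as a marker of early spermatogonia in mice, was read at 44.5 FPKM in S3, against 33.9 FPKM in S1 and 33.1 FPKM in S2. Since the measure includes the S3 value, these genes were chosen for a level near that of TEX14 in each library.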

How the data were processed

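RNA of 3 libraries was depleted of ribosomal RNA, made into directional libraries and sequenced as 150 bp pairs, per the labels' protocols. These protocols also name cutadapt 1.9.3 for trimming, HISAT2 2.0.4 for alignment and Cuffdiff for the level of each Ensembl gene. The authors deposited the values as FPKM. The protocols name susScr3, and the submitters' processing notes also name Sscrofa11.1, so no coordinates are printed. Column names do not tell which labelled sample a column is, so the libraries were treated as unnumbered members of 1 group.

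Symbols came from the table, or from a reference table for 737 rows, and 334 rows with differing symbols were left out as list members. Values under 1e-06, in 170 genes, were set to 0, and 781 genes at 0 throughout were not tested. The test was limma 3.58.1 on log2(FPKM + 1), with a pseudocount of 1, against 1 FPKM (intercept only, eBayes with trend, two-sided, Benjamini-Hochberg over 17949 genes, threshold 0.05). On this scale differences of low genes are understated. Tested on simulated data of 17949 genes, it called 4.5% of 2000 genes placed on the level, 84% of 200 at 1.5 times it and 98% of 200 at 2 times it. The simulated spread was drawn separately for each gene, so a shift shared by many genes of a library was not simulated. The members and lists were chosen with earlier results of these data known. Named genes are the 9 members, the 3 highest and 2 lowest genes of each other list, partner genes, marker extremes and the 5 genes most like TEX14. CDC23, CYP17A1, DDX4, ITGA6, LHCGR, TAGLN and WT1 were added after their values were seen. Alternatives were another pseudocount, a filter, 2 scalings, another level and leaving out each library. The DNA and protein sequences of the genes were not used here.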

Additional observations from a re-analysis of the deposited data

How the results depend on the processing

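No paired analysis was possible because there is only 1 group of libraries. What read depth does to low values could not be examined, since no counts are given. All 9 bridge and cytokinesis genes lay above 1 FPKM with a pseudocount of 0.1 and without any 1 library. They also did so under a filter at a mean of 0.5 FPKM and in both scalings. Both scalings raised all values kept, and the filter left those of the 9 genes unchanged, so neither could lower them. Over all genes, those below the level numbered 798 under that filter, since fewer low genes were tested, and 2924 without mitochondrially encoded and ribosomal protein genes, since the rest were scaled up. With 5 FPKM as the level, 7632 genes were above it and 9130 below, and 5 of the central spindle regulators lay above. There, log2 differences turned negative for CIT (-0.051), AURKB (-0.85), KIF14 (-1.40), SEPTIN6 (-0.35), MYL9 (-0.51), ZFYVE19 (-0.50), RAB11FIP3 (-0.20) and EXOC4 (-0.25), as the level was raised past them. CHMP4C, at -0.0019 as deposited, turned to 0.13 after rescaling to 1000000, 1.01 with abundant genes removed and, when 1 library was left out, lay between -0.063 and 0.083. S3 over S1 and S2 turned to 0.12 for CEP55 after rescaling to 1000000 and to -0.0098 for KIF20A with abundant genes removed. Leaving out 1 library moved the median coefficient of variation between 1.9003% and 8.52%. It moved the number of neighbouring pairs beyond their spread between 2 and 6, with the same sign then needed in 2 of 2 libraries.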
